A study of Mus musculus with 6 samples.

Results

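Arterial endothelial cells of the fracture callus were taken as barcodes that passed a gate on UMIs, the unique molecular identifiers that mark each captured transcript. A barcode needed at least 1000 UMIs with at most 10% of them mitochondrial, at least 5 summed UMIs of the endothelial genes Pecam1, Cdh5, Kdr, Emcn and Plvap, at most 1 UMI of the leukocyte gene Ptprc and fewer than 3 of the pericyte gene Rgs5. It also needed at least 2 summed UMIs of Gja5, Sox17 and Hey1, no fewer than its summed UMIs of the venous genes Selp and Ackr1. The gate took 1609 cells, which are 27.5% of 5848 endothelial cells and 4.23% of 38001 barcodes kept, out of 46944 deposited. The genes of the gate chose the cells, so their levels describe the choice and are not findings.

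The 6 libraries are 3′ single-cell libraries of femoral fracture callus, isolated from each mouse at 14 days post-fracture (dpf). The mice were 12 weeks old and, per the study's methods, male, and both groups carried floxed Piezo1 and received tamoxifen at 75 mg/kg on 5 days from day 5. The control group (Piezo1f/f, labelled wt) holds 3 libraries. The knockout group (Piezo1Col2a1) also holds 3, and its labels read Col2CreERT; Piezo3-/- where the study describes Piezo1. The Cre is driven by the promoter of Col2a1, a collagen gene of chondrocytes, so arterial cells were not the cells targeted. Kept barcodes of knockout library 3 held 55915 UMIs of Xist, the X-inactivation transcript of female cells, and 3 UMIs of 4 Y-linked genes. The other 5 libraries held 7 to 11 Xist UMIs and 740 to 8183 UMIs of each Y-linked gene. That library therefore goes against the stated sex. The total counts of genes called between arterial and other endothelial cells, the shares and the genotype counts are also given without it.

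Arteries carry blood under pressure, and their endothelium is specified by VEGF and Notch signalling, with SOXF factors such as Sox17 acting upstream of Notch ligands and Hey1 acting downstream of Notch. Arterial cells join to each other and to smooth muscle through connexins, of which Gja5 and Gja4 encode a pair, and they carry ephrin-B2 where veins carry its receptor EphB4. In healing bone, vessels invade the cartilage callus as it is replaced by bone.

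The promoters of the connexin pair are shown because of the place of both genes in the results. Gja4 had the highest fold among genes outside the gate that were called by the thresholds given below, and Gja5 belongs to the gate. Each is the 250 bases before the RefSeq start on GRCm38.p6, 5′ to 3′ along the gene, with the ETS core letters GGAAG (or CTTCC on the other strand) in capitals. The Gja5 stretch is chr3:97032152-97032401 on the plus strand, and that of Gja4 is chr4:127314040-127314289 on the minus strand.
Gja5: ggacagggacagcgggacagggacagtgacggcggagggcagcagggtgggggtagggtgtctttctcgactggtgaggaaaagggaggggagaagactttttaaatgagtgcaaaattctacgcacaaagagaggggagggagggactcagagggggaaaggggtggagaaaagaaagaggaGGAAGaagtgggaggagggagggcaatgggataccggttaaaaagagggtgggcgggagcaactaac
Gja4: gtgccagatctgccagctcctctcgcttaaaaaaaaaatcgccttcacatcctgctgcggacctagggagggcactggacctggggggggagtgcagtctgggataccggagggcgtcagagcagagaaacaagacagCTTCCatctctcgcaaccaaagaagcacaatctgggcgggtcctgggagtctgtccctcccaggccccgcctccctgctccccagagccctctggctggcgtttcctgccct

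Arterial cells were few in some libraries, and their depth was uneven. Control libraries 1 to 3 gave 113, 589 and 225 members, and knockout libraries 1 to 3 gave 43, 303 and 336. Summed over members, the libraries held 2475535, 6618001 and 1957814 UMIs in the controls and 1117807, 3544689 and 5665571 in the knockouts. Median UMIs per member were 16359, 9178 and 6921 in the controls and 21374, 8539 and 13469 in the knockouts. In the other endothelial cells the medians were 10167, 8687.5 and 5396.5 in the controls and 11734.5, 6130 and 10123 in the knockouts, so members were the deeper cells in 6 of 6 libraries. The part of depth in the levels was not tested beyond the thinned counts given with the results. No member barcode was shared between libraries. Levels are given as CPM, the UMIs of a gene scaled to a common total over a library's cells of one class, and no level is compared between genes.

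Of the members, 1463 held a Sox17 UMI, 901 a Hey1 UMI and 409 a Gja5 UMI, while 243 held all 3. The Gja5 share was 29.2%, 35.1% and 18.2% for the 3 controls and 39.5%, 21.1% and 14% for the 3 knockouts. Most members thus passed without Gja5, through Sox17 and Hey1. Of 6653 leukocyte barcodes with at least 2 Ptprc UMIs and no endothelial UMI, 16 (0.240%) held 2 arterial UMIs, at median depths of 3259.5 to 12275.5 UMIs. Since barcodes with any endothelial UMI were left out, this is a low estimate of background and no check of the label.

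When each arterial gene was left out of the gate in turn and the other pair was asked for 2 UMIs, the omitted gene was higher in the gated cells in 6 of 6 libraries. These genes belong to the rule, so the values describe the gate and are no check of the label. Gja5, chosen by Sox17 and Hey1 alone, stood at 74.9, 212 and 90.9 CPM in the gated cells of the controls and at 187, 77.6 and 36.1 CPM in those of the knockouts. In the remaining endothelial cells it stood at 3.40, 18.7 and 8.59 CPM in the controls and 2.28, 3.34 and 3.91 CPM in the knockouts. Hey2, a Notch target and arterial marker outside the gate, was nearly absent at 0.511 to 5.37 CPM in members.

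Against the 4239 other endothelial cells, members had higher levels of the connexin gene Gja4, the semaphorin gene Sema3g, the ephrin gene Efnb2 and the Notch ligand genes Dll4, Jag1 and Jag2, and lower levels of 6 of 11 venous genes. Folds were fitted with the library as a block and carry no test, since the cells were chosen by their own counts. A gene was called at a log2 fold of at least 1 (or at most -1) with the same sign in 6 of 6 libraries and a mean of at least 20 CPM in the higher class. Of 7258 genes outside the gate, 73 (1.01%) were called higher and 50 (0.689%) lower, and the median log2 fold was 0.00. Without knockout library 3 the counts were 87 and 69. All told, 13.0% of genes were higher and 6.54% lower in 6 of 6 libraries. Of the 73 genes, 54 were also called when the gate was applied to counts thinned to 1000 UMIs, with at least 2 endothelial UMIs asked for, which left 252 members and was fitted without knockout library 1.

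Gja4 encodes connexin 37 and lies at chromosome 4, 127311421 to 127314039, minus strand (GRCm38, GENCODE M21). It stood at 124, 220 and 215 CPM in arterial cells of the controls, and at 383, 453 and 176 CPM in those of the knockouts. In the other endothelial cells its level was 9.57, 10.6 and 18.6 CPM in the controls and 6.09, 22.3 and 10.0 CPM in the knockouts. The classes did not overlap, and the log2 fold was 4.18 (SE 0.17).

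Sema3g, a secreted semaphorin, stood at 176, 236 and 162 CPM in arterial cells of the controls and 217, 174 and 74.0 CPM in those of the knockouts, against 6.86 to 17.6 CPM in the other cells. Its log2 fold was 3.76 (SE 0.21), and knockout library 3 was the lowest. Bmx, a Tec-family kinase of arterial endothelium, stood at 45.6, 30.8 and 29.1 CPM in the controls and 42.0, 30.5 and 8.83 CPM in the knockouts, against 1.43 to 4.79 CPM in the other cells. The log2 fold was 3.45 (SE 0.18), and again knockout library 3 was the lowest of the 6.

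**Figure D1:**
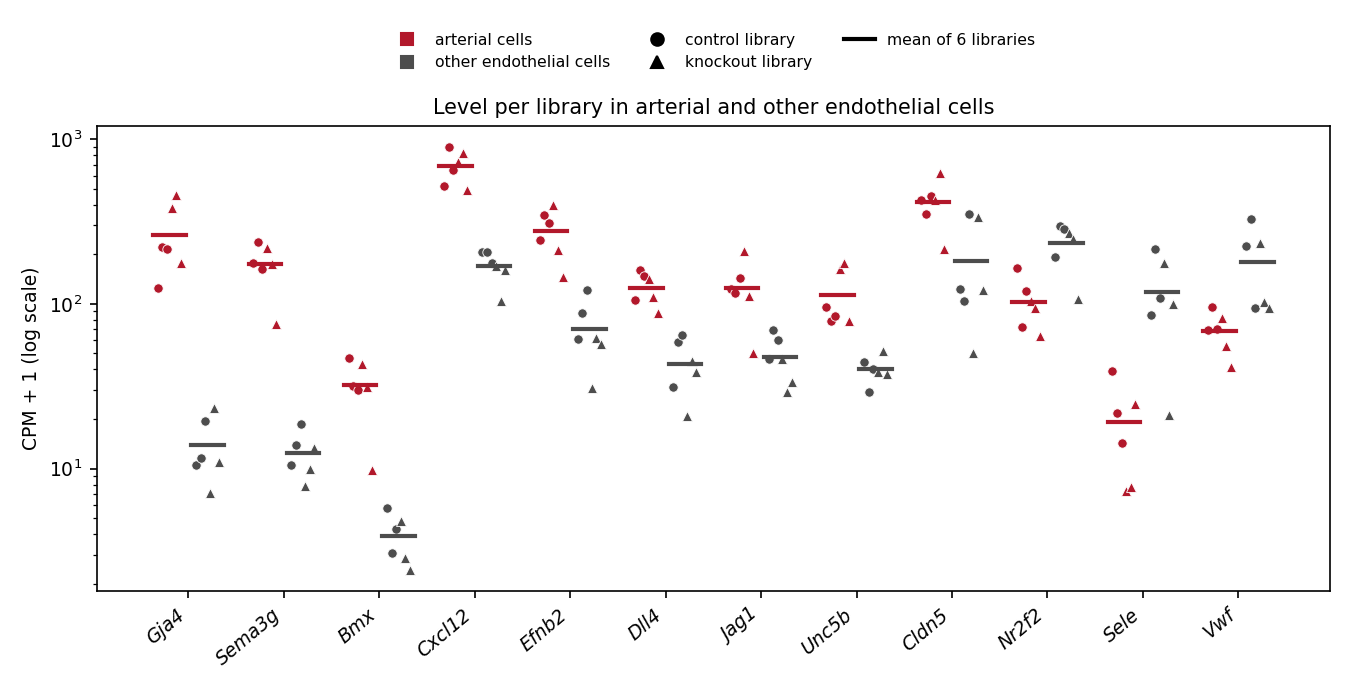
CPM plus 1 on a log scale for 12 genes in arterial cells (red) and other endothelial cells (grey), 1 point a library, circles for control and triangles for knockout, with bars at the mean of 6 libraries. Gja4, Sema3g and Bmx separate the classes without overlap, while Nr2f2, Sele and Vwf are lower in arterial cells in every library.

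Among the other genes of highest fold, Atp2a3, a calcium pump of the endoplasmic reticulum, had a log2 fold of 3.35 (SE 0.26) and St8sia6, a sialyltransferase, one of 2.79 (SE 0.23). Egfl8, a secreted paralogue of Egfl7, was at 2.68 (SE 0.17), Lama3, a laminin chain, at 2.20 (SE 0.20), and Dkk2, a secreted Wnt modulator, at 2.02 (SE 0.25). Ptprr, a receptor phosphatase, was at 2.29, Slc45a4, a solute carrier, at 2.23, Ssu2 at 2.12 and Sdcbp2 at 1.88. Chga, a granin of secretory granules, was called at 2.49 but unevenly, with 90.5, 121 and 1.02 CPM in the controls and 284, 11.8 and 15.4 CPM in the knockouts. Under the thinned gate its log2 fold was -0.37.

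Of the list of 24 arterial identity genes, 23 passed the level filter, 14 were called higher and 19 were higher in 6 of 6 libraries. The shares over all genes were 1.01% and 13.0%, and the median log2 fold of the list was 1.21. The gate holds genes that are known to go with this list, and the list was chosen with earlier results in view, so the count is a description. Cxcl12, a chemokine, stood at 519, 889 and 646 CPM in arterial cells of the controls and at 721, 820 and 491 CPM in those of the knockouts. In the other cells it was at 102 to 204 CPM, below every arterial value, with a log2 fold of 1.99 (SE 0.16). Efnb2, which encodes ephrin-B2, stood at 244, 346 and 306 CPM in the controls and 398, 212 and 144 CPM in the knockouts, against 29.7 to 120 CPM in the other cells. Its log2 fold was 1.91 (SE 0.19). Stmn2 had a log2 fold of 1.74, Unc5b, a netrin receptor, 1.40, Vegfc 1.29 and Fbln5, an elastic fibre protein, 1.10. Fbln2 (-0.21) and Hes1 (0.19) of the same list were near the median of all genes. The Fbln2 value turned with the setting, at 0.97 under the thinned gate. It was 0.77 against endothelial cells neither arterial nor venous and -0.93 against venous cells. Against the same cells Fbln5 was at 2.13 and 0.38.

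Of 14 Notch pathway members tested, the ligands Dll4, Jag1 and Jag2 and the receptor Notch4 were called higher, beside 1.01% of all genes. None was called lower, and the median log2 fold of the list was 0.24. Dll4, the Notch ligand of arterial and sprouting cells, stood at 104, 159 and 146 CPM in the controls and 140, 109 and 87.2 CPM in the knockouts, against 19.8 to 63.8 CPM in the other cells (log2 fold 1.50, SE 0.13). Jag1 had a log2 fold of 1.30 (SE 0.16), Jag2 of 1.44 (SE 0.12) and Notch4 of 1.21 (SE 0.14). Notch1 was higher in 6 of 6 libraries without passing the fold (0.55, SE 0.09), as was the feedback target Nrarp (0.75, SE 0.08). Hes1, a target expressed in many cell types, stood at 205 to 358 CPM in arterial and 194 to 313 CPM in other cells, which overlap.

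The upstream stretches of the called genes were searched for the RBPJ letters GTGGGAA on either strand, the site through which Notch acts. They occurred in 3 of the 56 higher genes that have a RefSeq window (5.36%) and in none of 36 lower ones, against 6.18% of 27025 genes. The ETS letters occurred in 57.1% of the higher and 69.4% of the lower genes, against 66.9% of all. The SOX letters ACAATGG on either strand occurred in 1.79% and 2.78%, against 3.46%. The higher genes thus held each motif no more often than all genes did, and no window farther away was searched. The RBPJ matches are printed with 10 bases on either side and the motif in capitals, from the plus strand for Tbxa2r and the minus strand for the others. Cgnl1 encodes a junction protein, Rbp7 a retinol carrier and Tbxa2r the thromboxane receptor, and their matches lie at chr9:71771777-71771803, chr4:149455101-149455127 and chr10:81328033-81328059, with a match at chr10:81328531-81328557 before another start of Tbxa2r.
Cgnl1: gtggctgcggGTGGGAAcggggtgctg
Rbp7: ccaggagtacGTGGGAAaggaaggaag
Tbxa2r: gttgggatggGTGGGAAggcaggaagg
Tbxa2r, other start: ctcccagctcTTCCCACatggcctccc

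Genes of junctions, basement membrane and signals to mural cells were called higher in 3 of 13, 1 of 14 and 3 of 10 cases, beside 1.01% of all genes. Of 13 junction genes tested, Gja4, the tight junction gene Cldn5 (1.35, SE 0.23) and Cgnl1 (1.06, SE 0.14) were called. By sign alone, 9 were higher in 6 of 6 libraries, beside 13.0% of all genes. Of 14 basement membrane genes, Lama3 was called and 11 were higher in 6 of 6 libraries, among them Col4a1 (0.52), Col18a1 (0.78), Nid2 (0.74) and Lama5 (0.65). That direction turned under the thinned gate, where 5 of the 14 basement membrane genes were above 0, the median went from 0.51 to -0.23, and Col4a1 was at -0.26 and Nid2 at -0.37. Of 10 signals to mural cells, Cxcl12, Jag1 and Pdgfd, a platelet-derived growth factor (1.44, SE 0.10), were called, and Pdgfb was higher in 6 of 6 libraries (0.83, SE 0.07). Of 7 ephrins and Eph receptors, Efnb2 and Efna1 (1.13, SE 0.10) were called, while the venous receptor Ephb4 was at 0.02.

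Of 16 genes of shear stress and vessel tone, 0 were called higher and 1 lower, beside 1.01% and 0.689% of all genes, with a median log2 fold of 0.25. By sign alone, 9 were higher and 3 lower in 6 of 6 libraries, beside 13.0% and 6.54% of all genes. Klf2, a factor induced by laminar flow, had a log2 fold of 0.45 (SE 0.10), Klf4 of 0.22 (SE 0.07), Cav1, the coat protein of caveolae, of 0.71 (SE 0.07) and Edn1, which encodes endothelin-1, of 0.78 (SE 0.15). Ptgs1, the constitutive cyclooxygenase, was the member called lower (-1.25, SE 0.14). Piezo1, a flow-sensing channel in endothelium and the target of the knockout in chondrocytes, was at -0.25 and lower in 5 of 6 libraries.

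Of 24 transcription factors tested, Prdm16 (1.60, SE 0.14) and Tcf15 (1.08, SE 0.13) were called higher and Nr2f2 lower, and 11 were higher in 6 of 6 libraries. The shares over all genes were 1.01%, 0.689% and 13.0%. Mecom (0.99, SE 0.14) and Epas1 (0.98) lay just under the fold. Among sprouting genes, Esm1 (1.60, SE 0.22) and Pgf (1.20, SE 0.21) were called, whereas under the thinned gate they were at 0.12 and -0.14. Of S-phase and G2/M genes 0 of 9 and 0 of 10 were called, with medians of -0.01 and 0.07, which under the thinned gate were -0.94 and -1.88. The sprouting median went from 0.52 to -0.36 there, and the capillary median from 0.12 to -0.53. VEGF and Tie receptor genes had a median of 0.12 and BMP and TGF-beta genes one of 0.24, with 1 and 0 genes called. Elastic fibre genes had a median of -0.21, or 0.37 under the thinned gate, with Fbln5 the gene called.

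**Figure D2:**
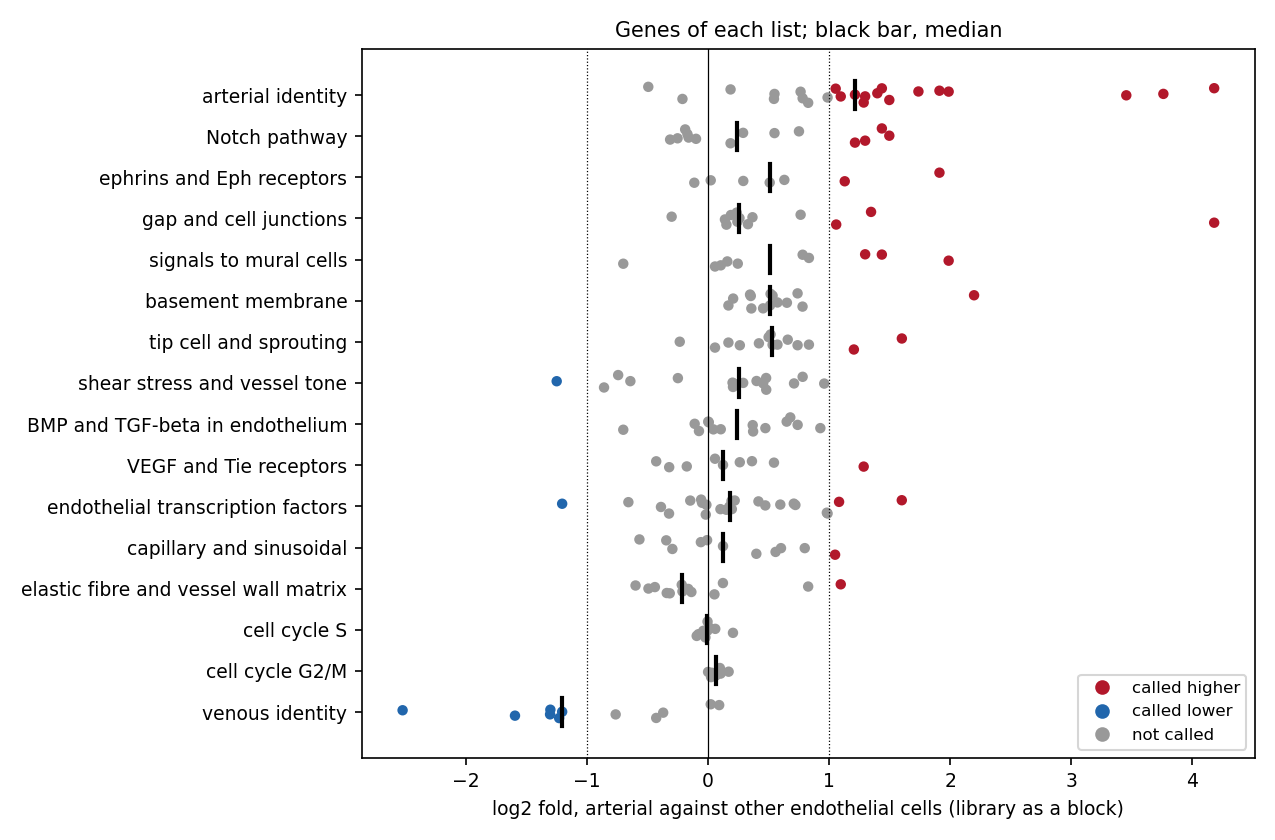
Log2 fold of each tested gene in arterial against other endothelial cells, 1 row a list, red for called higher, blue for called lower, grey for not called, with black bars at list medians and dotted lines at log2 folds of -1 and 1. Of the 16 lists drawn, arterial identity (median 1.21) and venous identity (median -1.20) lie farthest from 0.

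Of the 50 lower genes 6 were on the venous list, where 6 of 11 were called lower and 7 were lower in 6 of 6 libraries. The shares over all genes were 0.689% and 6.54%. The gate put cells with more Selp and Ackr1 UMIs than arterial UMIs among the other cells, so this count is a description. Nr2f2, the factor of venous fate, stood at 163, 71.6 and 118 CPM in arterial cells of the controls and at 103, 93.1 and 63.0 CPM in those of the knockouts. In the other cells it was at 192, 295 and 285 CPM in the controls and 267, 247 and 106 CPM in the knockouts, so the ranges overlap across libraries although each library showed the lower value in arterial cells (log2 fold -1.20, SE 0.16). Sele, the E-selectin of inflamed venules, was at -2.52 (SE 0.28), Lrg1 at -1.30, Vwf at -1.30 and Icam1, a leukocyte adhesion molecule, at -1.23. Under the thinned gate Vwf turned to 0.55. The lowest folds belonged to Cadm3 (-4.07, SE 0.21), Chp2 (-2.71), Ctnnal1 (-2.60), Adgrg6 (-2.46) and Cmah (-2.38), followed by Mctp1 (-2.17), Fam124a (-2.10), Lbp (-1.98) and Fam174b (-1.74). Of 8 chondrocyte markers tested, 1 was called lower and 3 were lower in 6 of 6 libraries. Of 6 osteoblast markers, 1 was called lower and 1 was lower in 6 of 6 libraries. Among the 50 were Ihh, a signal of hypertrophic chondrocytes, at -1.28, and Hapln1, a cartilage link protein, at -1.46. Panx3 at -1.35 and Ibsp at -1.16 were also among them. The summed chondrocyte and osteoblast markers were each higher in the other endothelial cells in 5 of 6 libraries, and their part in these folds was not tested. The annotated span of Cadm3, an adhesion molecule (chromosome 1, 173333258 to 173367695, minus strand), overlaps that of the gate gene Ackr1 (173331886 to 173333750, same strand), so reads of the pair may be shared and its value is uncertain. Cadm3 averaged 48.9 CPM in cells with more venous than arterial UMIs and 3.86 CPM in cells of neither class.

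What was lower depended on the cells set against the members. The other cells were split into 1671 with at least 2 summed Selp and Ackr1 UMIs, exceeding the arterial sum, and 2568 of neither class. Against the cells of neither class, the median of the venous list was 0.14, 89 genes were called lower, and 15 of them were among the 50. Sele was then at 0.75, Lrg1 at 0.14, Icam1 at 0.04 and Vwf at 1.71. Nr2f2 was at -0.39, with means of 102 CPM in members, 134 CPM in cells of neither class and 344 CPM in venous cells. Of the 73 higher genes, 41 were called against the cells of neither class and 70 against the venous cells. Gja4 was at 3.48 against the former and 6.31 against the latter.

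Members with a Gja5 UMI and members without one differed in genes of elastic matrix, capillaries and proliferation, as counted per list in what follows. This is again a description, since cells were split by their own counts, and a cell without a Gja5 UMI may still express the gene. Of 7368 genes, 226 (3.07%) were called higher and 245 (3.33%) lower in the 409 cells with Gja5 than in the 1200 without. Median UMIs per cell were lower in the cells with Gja5 in 5 of 6 libraries, at 12775, 9505 and 6305 in the controls and 17611, 7361 and 13197 in the knockouts, against 19390.5, 9022.5 and 7082 and 22292.5, 9056 and 13550 in the cells without.

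Elastic fibre genes, with a median log2 fold of -0.21 between arterial and other cells, had 6 of 13 members called higher with Gja5 and none lower. The shares over all genes were 3.07% and 3.33%. Of 6 pericyte and smooth muscle markers tested in the same split, Acta2 was called higher and Kcnj8 and Abcc9 lower, and the part of mural RNA in these folds was not tested. Eln, which encodes elastin, stood at 880, 659 and 1214 CPM in Gja5 cells of the controls and 777, 494 and 333 CPM in those of the knockouts. In members without Gja5 it was at 111, 94.6 and 42.3 CPM in the controls and 58.7, 34.1 and 91.2 CPM in the knockouts, a log2 fold of 3.27 with no overlap. Fbln5 (3.30), Mgp, an inhibitor of vessel calcification (2.50), Fbln2 (1.93), Ltbp4 (1.60) and Fbn1 (1.06) were called with it. In members without Gja5, Fbln5 averaged 81.2 CPM, beside 114 CPM in the other endothelial cells.

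Of 23 arterial identity genes outside the gate, 16 were called higher with Gja5, beside 3.07% of all genes, with a median log2 fold of 1.60. Gja4 stood at 501, 449 and 1067 CPM with Gja5 in the controls and 1013, 1380 and 710 CPM in the knockouts, against 39.1 to 238 CPM without. Bmx was at 4.53 on the log2 scale, Sema3g at 3.02, Jag1 at 2.23, Vegfc at 2.13 and Efnb2 at 1.59. Bmx averaged 129 CPM with Gja5 and 5.0 CPM without, beside 2.87 CPM in the other endothelial cells. The genes of highest fold after Bmx were Pthlh (4.43), Atp2a3 (4.09), Atp2b2 (3.96) and Gata6 (3.88). Vwf, which was lower in arterial cells as a whole but not under the thinned gate, also differed in this split. It averaged 249 ± 76.2 CPM with Gja5 and 20.4 ± 7.81 CPM without (SD, n = 6).

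With Gja5, 4 of 11 capillary and sinusoidal genes, 5 of 14 sprouting genes, 3 of 9 S-phase genes and 9 of 10 G2/M genes were called lower. None of these lists had a gene called higher. Over all genes in this split, 3.33% were called lower and 3.07% higher. Apln, the apelin of sprouting capillaries, stood at 4.41, 11.7 and 25.1 CPM with Gja5 in the controls and 21.7, 10.5 and 6.86 CPM in the knockouts, against 108 to 314 CPM without. Rgcc (-1.94), Gpihbp1, the carrier of lipoprotein lipase on capillaries (-1.25), Cd300lg (-1.55) and Ramp3 (-2.85) were the capillary genes called. The median log2 fold of the G2/M genes was -2.46. Mki67, a marker of cycling cells, averaged 18 CPM with Gja5 and 137 CPM without, and Top2a 23.9 and 141 CPM. Of 11 venous genes tested, Vwf (3.52) and Vcam1 (1.33) were called higher with Gja5, and 4 were called lower. Among the 4 were Nr2f2 (-1.97) and Aplnr, the apelin receptor (-3.04). The lymphatic genes Mmrn1 (-5.10) and Lyve1 (-4.68) were lower too, and no cell with Gja5 held 2 summed UMIs of Prox1, Lyve1 and Mmrn1, whereas 43 cells without it did.

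**Figure D3:**
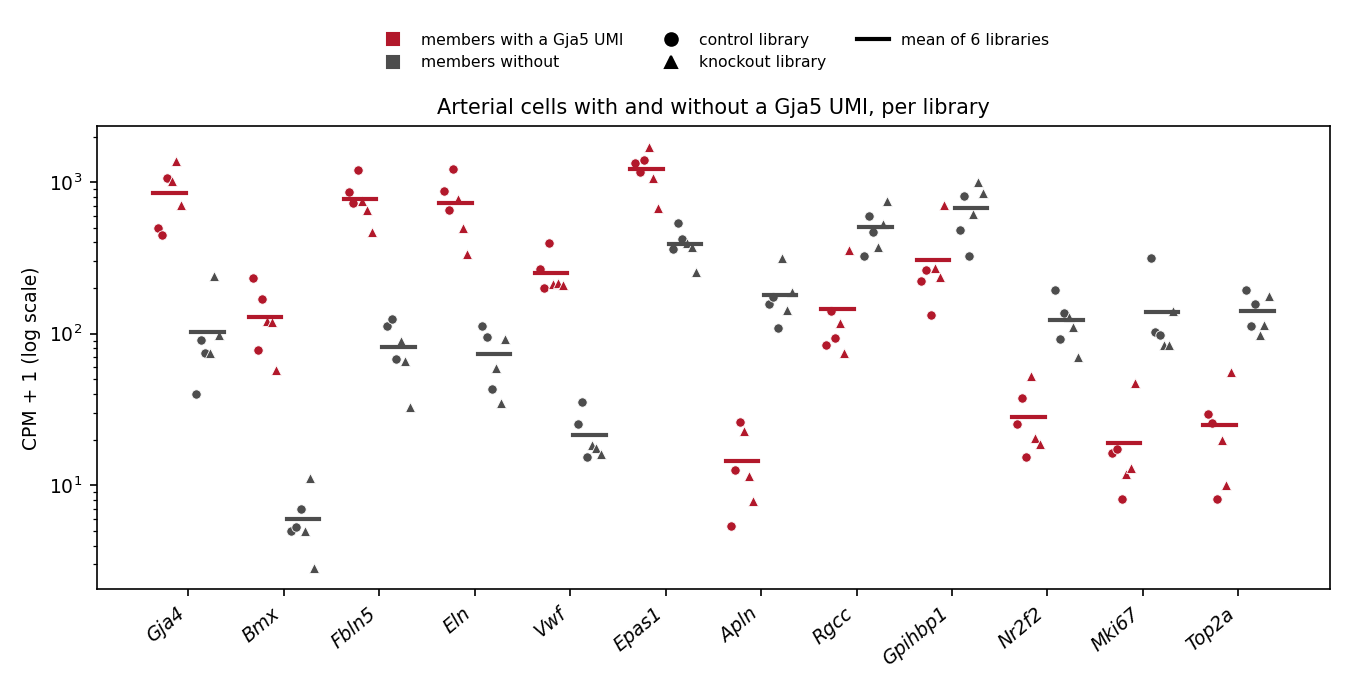
CPM plus 1 on a log scale in members with a Gja5 UMI (red) and members without (grey), 1 point a library, circles for control and triangles for knockout, with bars at the mean of 6 libraries. Eln and Fbln5 lie above, and Apln, Mki67 and Top2a below, the cells without Gja5 in every library.

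At the threshold of the gate the levels differed by degrees. The 475 members with exactly 2 arterial UMIs had a mean Gja4 level of 39.7 ± 20.1 CPM, against 35.7 ± 13.4 CPM in the 835 endothelial cells with exactly 1 and a venous sum no higher, and 262 CPM over all members. Sema3g stood at 48.5 ± 19.0 and 28.3 ± 12.6 CPM on the inner and outer side, and Efnb2 at 146 ± 73.0 and 111 ± 62.2 CPM (SD, n = 6). Unc5b had a lower mean inside, at 53.8 ± 25.7 against 71.2 ± 38.0 CPM, but was higher there in 3 of 6 libraries, and Dll4 (102 against 71.5 CPM) and Jag1 (57.2 against 43.5 CPM) had higher means inside but were higher there in 2 of 6 libraries each. Cells with no arterial UMI averaged 9.67 CPM of Gja4.

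Marker genes of other callus cells had UMIs in the sums, at levels that differed between libraries. The source of these UMIs was not tested. The 9 chondrocyte markers together stood at 15423, 2737 and 742 CPM in arterial cells of the controls and 3370, 147 and 7880 CPM in those of the knockouts, led by Col2a1, with none at 0. The 7 fibroblast markers, led by Col1a1, stood at 8492, 3575 and 8348 CPM in the controls and 9337, 16165 and 6538 CPM in the knockouts. The 6 lymphatic markers stood at 251, 15 and 50.1 CPM in the controls and 885, 9.31 and 58.2 CPM in the knockouts, led by Ccl21a. Lymphocyte markers were at most 8.46 CPM.

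The question of the genotype comparison is whether arterial cells differ after loss of Piezo1 in Col2a1-expressing cells. Their share of endothelial cells among controls came to 31.7%, 30.6% and 22.0%, and among knockouts to 39.4%, 21.0% and 33.8%. The means were 28.1% ± 5.31 and 31.4% ± 9.48 (SD, n = 3 each), and the groups overlap (difference 3.28 percentage points, two-sided exact permutation p = 0.6). The 95% Wilson intervals, which cover counting error only, ran from 27.1% to 36.7% for control library 1 and from 30.8% to 48.8% for knockout library 1. Without knockout library 3 the difference was 2.07 points, and without knockout library 1, the smallest, it was -0.74 points.

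Of all kept barcodes, arterial cells made up 4.41%, 7.01% and 2.68% in the controls and 2.01%, 3.19% and 4.82% in the knockouts. The groups overlap (means 4.70% ± 2.18 and 3.34% ± 1.41, difference -1.36 points, two-sided exact permutation p = 0.5), and without knockout library 3 the difference was -2.10 points. With 3 libraries against 3 the smallest p is 0.1. Replicate 1 of both groups was made with an earlier Cell Ranger version and replicate 3 of both with another gene list, so values were also read within each number, where 1 library stands against 1. Knockout minus control share of endothelial cells was 7.71, -9.67 and 11.8 points for numbers 1, 2 and 3, and of kept barcodes -2.40, -3.82 and 2.14 points. The direction thus differed between numbers for both shares.

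**Figure D4:**
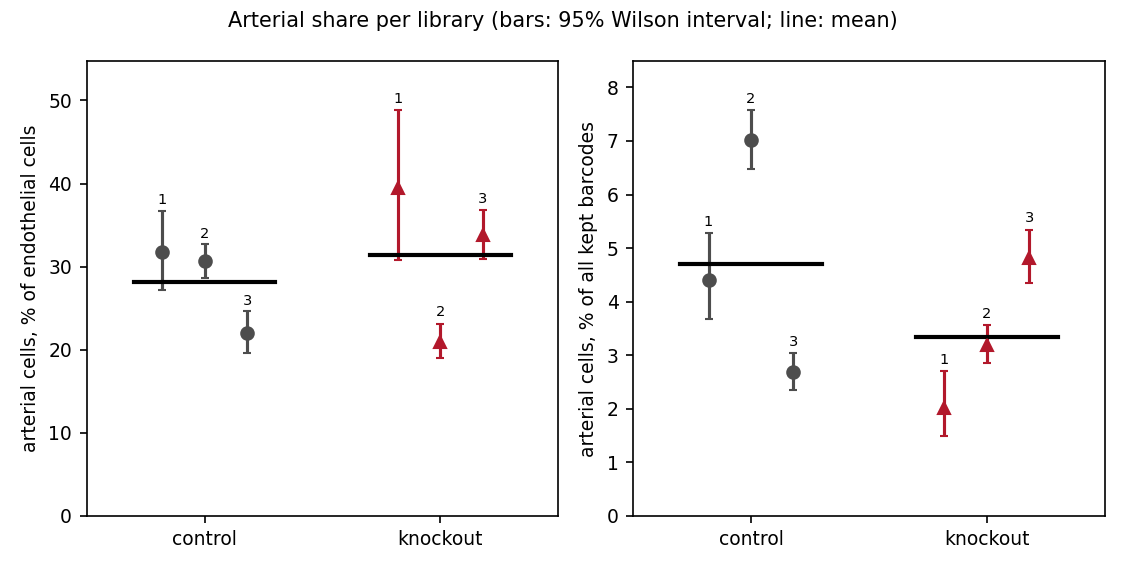
Arterial cells as a percentage of endothelial cells (left) and of all kept barcodes (right), 1 point a library, numbered by replicate, with 95% Wilson intervals and a line at the mean of 3. Control and knockout libraries overlap in both.

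No gene passed between genotypes in arterial cells by edgeR with low counts filtered out. Tested by edgeR (quasi-likelihood, p adjusted after Benjamini and Hochberg), 0 of 11946 genes (0.0%) were higher and 0 (0.0%) lower in the knockout at an adjusted p under 0.05. The smallest adjusted p was 0.939, and 524 genes had an unadjusted p under 0.05, of which 256 (2.14%) were higher and 268 (2.24%) lower. In the other endothelial cells 0 of 13944 passed by edgeR, with 651 at an unadjusted p under 0.05 (2.03% higher and 2.64% lower). The genotype difference itself differed between the classes for 0 of 13765 genes by edgeR, with 394 at an unadjusted p under 0.05 (1.47% and 1.39%). DESeq2 called 7, 3 and 0 in these comparisons. With no filter on low counts edgeR called far more genes in the first and last of them, as given under the dependence on processing. Without knockout library 3, edgeR called 0, 0 and 1, the last being Saa3, an acute-phase gene. In bulk sums of this kind, fewer cells of a subtype and less RNA per cell cannot be told apart.

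Piezo1 itself stood at 90.5, 91.0 and 87.3 CPM in arterial cells of the controls and 151, 67.1 and 59.0 CPM in those of the knockouts (log2 fold 0.03, SE 0.32). Knockout library 1 was above and the other two below every control. Of other single genes looked at, Apoe, a lipid carrier, was at -0.09 (SE 0.37), Trp53 at 0.23 (SE 0.21), Cdkn2a, a cell-cycle inhibitor, at 0.15 (SE 0.45) and Lars2 at -0.71 (SE 0.63), with adjusted p of 0.939 to 0.994 by edgeR.

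Of 23 arterial identity genes tested, 0 passed, 2 had an unadjusted p under 0.05 and the median log2 fold was -0.09. Gja4 had a log2 fold of 0.86 (SE 0.37, edgeR adjusted p = 0.939), with control values of 124 to 220 CPM and knockout values of 176 to 453 CPM that overlap. Unc5b was at 0.72 (SE 0.29, edgeR adjusted p = 0.939), where knockout libraries 1 and 2 stood above and library 3 below every control. Of 18 Notch genes 0 passed (median -0.11), and of 18 genes of shear stress and vessel tone 0 passed (median -0.18). Of the latter, 2 were higher and 2 lower at an edgeR unadjusted p under 0.05, beside 2.14% and 2.24% of all genes. Unc5b, Klf4 and Egr1 were chosen after their values were seen. Klf4 stood at 547, 693 and 539 CPM in the controls and 503, 303 and 335 CPM in the knockouts, without overlap (log2 fold -0.62, SE 0.26, edgeR adjusted p = 0.939). Egr1, an immediate early gene, stood at 433, 419 and 286 CPM in the controls and 243, 180 and 189 CPM in the knockouts (log2 fold -0.86, SE 0.24, edgeR adjusted p = 0.939). Of the 14 immediate early and dissociation genes that include it, 0 passed and 1 had a fold above 0. Their median log2 fold was -0.28, against -0.0035 over all genes, and the part of dissociation was not tested. Over all genes, 4.15% had all 3 knockout libraries above and 4.6% all 3 below every control.

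Of the named genes, Mmp9, a matrix protease chosen here after its values were seen, had the lowest unadjusted p (edgeR, 0.00019). It stood at 20.6, 19.8 and 20.4 CPM in arterial cells of the controls and 58.1, 304 and 166 CPM in those of the knockouts (log2 fold 3.18, SE 0.52, edgeR adjusted p = 0.939). In the other endothelial cells it was at 14.7 to 31.6 CPM and 83.0 to 380 CPM, a log2 fold of 3.49. Ibsp, which encodes bone sialoprotein, stood at 817, 168 and 354 CPM and at 1801, 2045 and 1890.2 CPM (log2 fold 2.17, SE 0.49), and C1qa, a complement gene of macrophages, at 11.3, 11.9 and 13.8 CPM and at 24.2, 77.9 and 45.0 CPM (log2 fold 2.07, SE 0.40). Beside them, the 7 osteoblast markers summed to 1420, 869 and 3262 CPM in the controls and 3342, 4004 and 3432 CPM in the knockouts, with none at 0. The 8 macrophage markers, led by Apoe, summed to 254, 352 and 659 CPM and to 332, 804 and 564 CPM. Of these lists 0 genes passed by edgeR, while 3 of 7 osteoblast and 5 of 8 macrophage markers were higher in the knockout at an unadjusted p under 0.05, with median log2 folds of 1.36 and 1.24, against 2.14% of all genes. At that threshold 2 of 7 fibroblast markers were higher and 2 lower. Of 8 pericyte and smooth muscle markers tested, 2 were lower, beside 2.24% of all genes. The part of RNA from other cells in these values was not tested. Ctnnal1, which was called lower in arterial than in other endothelial cells, stood at 24.2, 15.4 and 14.8 CPM in arterial cells of the controls and 7.16, 4.80 and 7.06 CPM in those of the knockouts, without overlap (log2 fold -1.46, SE 0.32, edgeR adjusted p = 0.939). DESeq2 called Mmp9, Ibsp, C1qa, Ifitm5, Dmp1, Ramp1 and Pf4 in arterial cells, all higher in the knockout. Without knockout library 1, edgeR called Mmp9 alone (adjusted p = 0.0228).

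**Figure D5:**
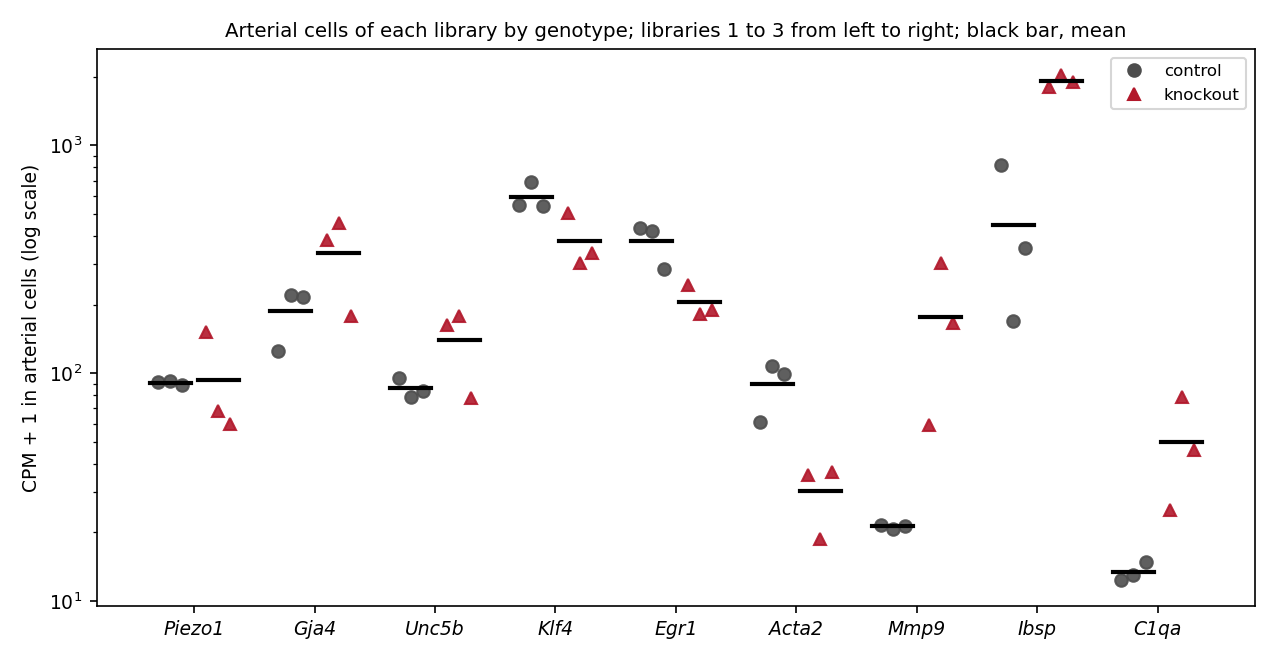
CPM plus 1 on a log scale in arterial cells of each library, control in grey and knockout in red, with bars at the mean of 3. Acta2, Klf4 and Egr1 have lower and Mmp9, Ibsp and C1qa higher knockout values without overlap, none past the adjusted threshold by edgeR. Every gene drawn except Piezo1 and Gja4 was chosen after its values were seen.

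Acta2, a smooth muscle actin, stood at 60.2, 107 and 98.6 CPM in arterial cells of the controls and 34.9, 17.8 and 35.8 CPM in those of the knockouts (log2 fold -1.56, SE 0.35, edgeR adjusted p = 0.939). The 10 pericyte and smooth muscle markers summed to 394, 284 and 301 CPM in the controls and 180, 195 and 211 CPM in the knockouts. None of them was at 0, and the gate had limited Rgs5. The part of these cells' RNA in the Acta2 values was not tested.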

How the data were processed

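The deposited values are UMI counts per gene and barcode, raw and unnormalised, which the authors made on GRCm38 with version 6.1.1 of Cell Ranger for both first replicates and version 6.1.2 for the rest, per the file headers and labels. Seurat is also named there. Gene identifiers were joined over the 52081 that all 6 libraries list. Members and gene lists were chosen with earlier results of these data known. UMIs were summed per library and class. For genotype, edgeR 4.0.16 in R 4.3.3 was used (two-sided quasi-likelihood test after filterByExpr and TMM scaling, Benjamini-Hochberg threshold 0.05), over 6 libraries, each with at least 43 members. The SE is the log2 fold divided by the square root of F. The test of the genotype difference between classes had the library as a block. Shares were compared by exact permutation in scipy 1.17.1. No doublets were removed in the main values; Scrublet in scanpy 1.11.5 gave an alternative. Scripts were tested on simulated data. Named genes are those of the gate, the 15 highest and 10 lowest folds among called genes, up to 6 of each list by level and by fold, Piezo1, Apoe, Cdkn2a, Trp53, Lars2 and sex-linked genes. Mmp9, Ibsp, Ifitm5, Dmp1, C1qa, Egr1, Klf4, Acta2, Ramp1, Pf4 and Unc5b were chosen after their values were seen. So were genes given for cells with and without Gja5, and genes beside a motif. Alternatives were other barcode filters, gates, scalings, tools and left-out libraries. Per the labels each library is from a separate mouse, 3 a group, whereas the study's text gives more than one number of mice for this experiment, so p-values measure the spread between 3 libraries a group.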

Additional observations from a re-analysis of the deposited data

Results flagged for a closer look

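Of 228 named genes, 2 had a difference between arterial and other endothelial cells that pointed one way in every control library and the other way in every knockout library. Fos, an immediate early transcription factor, was lower in arterial cells by a mean log2(CPM + 1) difference of -0.05 in the controls (-0.08 to -0.04) and higher by 0.12 in the knockouts (0.01 to 0.33). The knockout minus control value was 0.18, and by edgeR the test of that difference gave an unadjusted p of 0.182 and an adjusted p of 1.00. Junb, its partner in the AP-1 complex, was at -0.12 in the controls (-0.19 to -0.04) and 0.06 in the knockouts (0.01 to 0.16), a difference of 0.19 with an edgeR adjusted p of 1.00. Neither passed. Both genes respond to tissue dissociation, the part of which was not tested.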

How the results depend on the processing

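The direction of the arterial share of endothelial cells was not stable. Its knockout minus control difference of 3.28 percentage points was -0.025 with the gate on counts thinned to 1000 UMIs and -0.98 without replicate 3 of both groups, and leaving out 1 library at a time gave -0.74 (without knockout library 1) to 8.51. The share of kept barcodes kept its sign under the same settings, at -2.37 to -0.21 with 1 library left out. For genotype in arterial cells, against 0 genes by edgeR, DESeq2 called 7 and edgeR with no filter on low counts 141, and leaving out 1 library gave 0 to 1. In other endothelial cells these tools gave 3 and 6. For the genotype difference between classes, no filter gave 138, a gate of at least 3 arterial UMIs gave 1, leaving out 1 library gave 0 to 1, and leaving out replicate 1 of both groups, chosen after seeing the data, gave 7. Piezo1 in arterial cells, at 0.03 on the log2 scale, was -0.46 without replicate 1 of both groups and ranged from -0.42 to 0.25 with 1 library left out.

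Replicate numbers were not taken to pair the libraries. Same-numbered libraries had correlated deviations of 0.27, -0.01 and 0.18, and the best match of numbers 1, 2 and 3 was 1, 1 and 2. The fit with the replicate number as a block called 0 genes in each genotype comparison, put Piezo1 at -0.063, and gave exact sign-flip p-values of 0.75 and 0.5 for the shares of endothelial cells and of kept barcodes.

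Of the descriptive counts, the 73 higher genes became 133 against venous cells and 165 under the thinned gate. The 50 lower genes became 89 against cells of neither class, 117 against venous cells, 262 under the thinned gate, 87 without replicate 3 of both groups and 50 to 78 with 1 library left out, the highest without knockout library 2. Under the thinned gate Chga was at -0.37, Vwf at 0.55, Btnl9 at -0.036 and Pgf at -0.14. Against cells of neither class Sele was at 0.75, Vwf at 1.71, Lrg1 at 0.14 and Icam1 at 0.044. Over the named genes, 347 of 4156 alternative folds had the other sign, of which 8 belonged to called genes. The thinned gate gave 60 of them, venous cells 47 and cells of neither class 38. The cause of these changes was not tested. Knockout library 1 held 43 members, the fewest.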
